A study of Mus musculus with 27 samples.

Results

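The sites described here are 12231 LXR-bound regions of Kupffer cells, macrophages that reside in the liver, at which LXR was found on both diets and the acetyltransferase P300 in NASH only. They were chosen by the authors' deposited lists of reproducible ChIP-seq sites. A member is a site of the NASH LXR list that overlaps by at least 1 bp a site of the control LXR list and a site of the NASH P300 list, and overlaps no site of the control P300 list. The members are 23.7% of the 51709 sites of the NASH LXR list and 33.4% of the 36584 LXR sites shared by both diets, here called stable. The animals were C57BL/6J mice on a NASH diet, which models non-alcoholic steatohepatitis, and they were set against C57BL/6J mice on a control diet, with no allele or other agent given for either group. Both groups were Kupffer cells sorted as F4/80-high and Tim4-positive, so cells without Tim4 were not sampled, and livers were perfused and digested in the presence of flavopiridol, an inhibitor of transcription. Of the 27 samples of the series, H3K27ac, LXR, ATF3 and P300 had 2 libraries per diet each, LXR being pulled down with antibodies to both of its forms. The labels give neither the ages of the mice nor how long they were fed. The header of the H3K27ac table names 20 weeks (20wk) for the chromatin accessibility (ATAC) lists behind its windows, and those of the NASH lists for LXR and P300 carry the name NASH30, whose unit is not given, so these times may differ.

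LXR alpha and LXR beta are nuclear receptors for oxidised cholesterol that bind DNA together with RXR and switch on genes of cholesterol efflux and fatty acid synthesis. In Kupffer cells LXR is also one of the factors that hold the identity of the cell. P300 is recruited by DNA-bound factors and acetylates histones, among them lysine 27 of histone H3 (H3K27ac), a mark of active promoters and enhancers. ATF3 is a stress-induced factor of the ATF and AP-1 family.

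The letters under the members could be read only at promoters, for which RefSeq sequence of GRCm38.p6, the assembly behind mm10, was at hand. Member sites covered at least 100 bp of such a promoter entry in 1466 cases. The 6 stretches below are shown because H3K27ac in their windows differed between the diets with both scalings used below. They were chosen after the values were seen. Each runs 5′ to 3′ on the strand of its gene and is the part of the member site within the 250 bp upstream of the start, the reach of the RefSeq entries. The Il6 site goes on further upstream, to position 30012798, and that part is not shown. The sites of Slc16a1, Ripor2, Agpat4 and Tmed4 go on past the start, to positions 104638722, 24614643, 12119378 and 6274791. Those parts are not shown either. Capitals mark a motif match, and in the Adcy7 stretch both arms of a direct repeat. The stretches are chr8:88282778-88282982, plus strand (Adcy7), chr3:104638429-104638663, plus (Slc16a1), chr13:24614409-24614605, plus (Ripor2), chr17:12119136-12119283, plus (Agpat4), chr5:30012864-30013012, plus (Il6) and chr11:6274838-6275058, minus (Tmed4).
Adcy7: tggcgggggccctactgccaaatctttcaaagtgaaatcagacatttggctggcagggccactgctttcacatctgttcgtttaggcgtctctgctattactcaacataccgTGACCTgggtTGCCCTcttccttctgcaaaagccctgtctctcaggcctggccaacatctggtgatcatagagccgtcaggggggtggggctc
Slc16a1: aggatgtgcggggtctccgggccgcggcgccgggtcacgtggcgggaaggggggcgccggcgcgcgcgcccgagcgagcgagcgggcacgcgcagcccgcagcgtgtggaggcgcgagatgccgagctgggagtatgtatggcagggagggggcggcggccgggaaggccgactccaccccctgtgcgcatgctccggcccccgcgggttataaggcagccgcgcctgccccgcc
Ripor2: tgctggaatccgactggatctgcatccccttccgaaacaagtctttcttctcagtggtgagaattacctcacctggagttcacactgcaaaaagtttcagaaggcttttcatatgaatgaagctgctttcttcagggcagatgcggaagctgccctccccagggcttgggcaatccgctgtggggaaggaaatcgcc
Agpat4: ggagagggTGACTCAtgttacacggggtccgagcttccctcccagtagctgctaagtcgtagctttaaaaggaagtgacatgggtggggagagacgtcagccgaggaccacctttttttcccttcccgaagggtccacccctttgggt
Il6: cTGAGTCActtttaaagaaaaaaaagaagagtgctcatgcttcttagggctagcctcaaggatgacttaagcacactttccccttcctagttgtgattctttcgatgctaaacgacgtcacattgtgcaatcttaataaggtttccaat
Tmed4: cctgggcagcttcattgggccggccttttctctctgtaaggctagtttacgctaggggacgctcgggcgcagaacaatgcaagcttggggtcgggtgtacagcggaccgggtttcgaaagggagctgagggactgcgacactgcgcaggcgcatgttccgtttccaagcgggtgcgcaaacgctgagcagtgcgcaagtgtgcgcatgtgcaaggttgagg

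The Adcy7 stretch holds the receptor hexamer AGGTCA, on the minus strand, as one arm of an LXR-type direct repeat with 4 spaced bases and 1 mismatch. Adcy7 encodes an adenylate cyclase. The Agpat4 stretch, at a gene of phospholipid synthesis, holds an AP-1 motif (TGANTCA). The Il6 stretch, from −250 to −102 bp of the start of the interleukin-6 gene, holds an AP-1 motif near its 5′ end. A control P300 site lay 62 bp from the Il6 member, which a rule that bars control P300 within 500 bp would drop. None of the motifs searched occurred in the stretches of Slc16a1, which encodes a lactate transporter, of Ripor2 or of Tmed4. That says only that these letters are not in those stretches, which leave out the parts of the member sites past the start. Motifs were searched on both strands, and a match at one motif may overlap another.

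At the adenylate cyclase promoter the Adcy7 window had 10.1 and 8.84 normalised tags in NASH, against 1.06 and 0.44 in control, with a log2 change of 2.86 (SE 0.60, limma adjusted p = 0.0137). The Il6 window had 0.53 and 3.64 in NASH and 15.8 and 14.2 in control (−2.32, SE 0.58, limma adjusted p = 0.0119). The Tmed4 window had 0.53 and 0.52 in NASH and 7.39 and 10.2 in control (−2.41, SE 0.61, limma adjusted p = 0.0138). The Slc16a1, Ripor2 and Agpat4 windows changed by 2.61, 2.70 and 2.19 (limma adjusted p = 0.0183, 0.0187 and 0.0473). The diets did not overlap in any of these 6 windows. Each call was lost without 1 or more of the libraries. Without NASH 1 the limma adjusted p was 0.0739 for Adcy7, 0.0578 for Slc16a1, 0.0886 for Ripor2, 0.231 for Agpat4 and 0.105 for Il6. Without NASH 2 it was 0.0719 for Adcy7, 0.186 for Slc16a1, 0.144 for Ripor2, 0.166 for Agpat4 and 0.0600 for Tmed4. Without control 1 it was 0.194 for Agpat4, and without control 2 it was 0.0516 for Ripor2. With DESeq2 all 6 calls were lost, at adjusted p of 0.056 to 0.258. Only 2 tags lay in the 2 control libraries at Adcy7 and 2 in the 2 NASH libraries at Tmed4. The ratio of tags per library total was 15.2 at Adcy7, higher in NASH (exact 95% interval 3.91 to 130), and 17.8 at Tmed4, higher in control (4.51 to 153).

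The motif letters were counted in all 1737 promoter entries of which a member covered at least 100 bp. AGGTCA occurred in 12.03% of member promoters, 12.8% of 4337 promoters at sites with P300 on both diets and 16.3% of all 32851 promoters of 300 bp. The LXR direct repeat, with up to 2 mismatches, occurred in 3.11%, 1.78% and 3.02%. The CRE motif TGACGTCA, bound by ATF factors, occurred in 3.91%, 4.40% and 1.79%, and TGANTCA in 5.58%, 4.80% and 7.81%. The PU.1 core GAGGAAGT occurred in 3.80%, 5.37% and 3.20%, and the lysosomal MiT/TFE motif TCACGTGA in 1.96%, 2.63% and 0.97%. The C/EBP motifs TTGCNNCAA (1.44%, 1.45% and 2.08%) and TTGCGCAA (0.29%, 0.60% and 0.18%), the MAF hexamer TGCTGA (14.9%, 14.3% and 19.5%) and the RUNX motif TGTGGTTT (1.90%, 1.04% and 1.78%) were searched as well. The longer NF-kB, IRF and MAF motifs occurred in 1.73%, 3.51% and 0.35% of member promoters, against 1.47%, 3.44% and 0.39% of all promoters. At promoters with P300 on both diets they occurred in 1.78%, 3.67% and 0.28%. Member promoters and those with P300 on both diets thus stood on the same side of the whole promoter set for most motifs. The exceptions were the LXR direct repeat and the RUNX motif, which were above it at members and under it with P300 on both diets. These shares are descriptions of the letters, with no test.

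H3K27ac was deposited in 70300 windows with coordinates of build mm10. Tags had been scaled to a common library size and are here called normalised tags. The libraries held 18749728 and 19231109 tags in NASH and 9468035 and 22615879 in control, of which 7.91% to 9.60% lay in the windows. Nothing in the labels says that libraries of a diet came from separate animals, so p-values measure the spread between libraries, which may be technical. The windows of 8 Kupffer cell markers summed to 1082 and 995 normalised tags in NASH and 1715 and 1627 in control, and all 8 markers were in the table. Those of 4 of 5 monocyte markers summed to 462 and 459 in NASH and 606 and 499 in control. T cell windows summed to 13.3 and 26.5 in NASH and 3.17 and 3.98 in control (2 of 5 markers), hepatocyte windows to 27.7 and 30.2 in NASH and 22.2 and 23.9 in control (3 of 5), and endothelial windows to 69.9 and 60.3 in NASH and 120 and 73.4 in control (5 of 5). Neutrophil windows summed to 70.9 and 65.0 in NASH and 99.3 and 112 in control (3 of 5), cholangiocyte windows to 40.0 and 24.4 in NASH and 17.97 and 13.7 in control (2 of 5), and B cell windows to 3.74 and 4.68 in NASH and 3.17 and 4.42 in control (2 of 5). No window was annotated to the stellate cell markers, and no marker in the table was at 0 throughout. The part of these differences in the results below was not tested. In sorted bulk cells, fewer cells with the mark and less mark per cell cannot be told apart.

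The members were moderate P300 sites. Widths of the LXR sites ran from 200 to 887 bp with a median of 231 bp. The enrichment score the authors gave to the overlapped NASH P300 site had a median of 43 at members and 78 at stable sites with P300 on both diets. Members stood at the 44.8th percentile of the NASH P300 list, and 10.5% of them fell in its upper 25%, against the 78.6th percentile and 56.2% for sites with P300 on both diets. In the NASH LXR list members stood at a median percentile of 53.3, and those with P300 on both diets at 73.7. In the control LXR list the medians were 43.9 for members and 72.0 for sites with P300 on both diets. These values come from the factors that defined the members and carry no test. The remaining stable sites were 18753 with P300 on both diets, 739 with P300 in control only and 4861 with P300 on neither diet.

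The NASH P300 list held 52628 sites and the control list 25219, and 22779 of the NASH sites (43.3%) overlapped a control one. Just inside the rule, the smallest overlap of a member with its NASH P300 site was 1 bp, against a median of 206 bp, and the closest control P300 site lay 1 bp away, against a median of 7168 bp. Just outside it, LXR sites were kept out by an overlap of 1 bp. Within 500 bp of a control P300 site lay 1487 members (12.2%). With the NASH P300 list shortened by score to the length of the control list, 4786 members were left.

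ATF3, which the rule did not use, overlapped more of the members in NASH than in control. A site of the NASH ATF3 list overlapped 6848 members, or 56.0% (exact 95% binomial interval 55.1 to 56.9%, counting error only), and a site of the control ATF3 list 2890 members, or 23.6%. ATF3 was called in NASH only at 36.8% of members, on both diets at 19.1%, in control only at 4.48% and on neither diet at 39.5%. The NASH ATF3 list was the longer one, with 38828 sites against 16109 in control. Among stable sites with P300 on both diets ATF3 overlapped 74.0% in NASH and 53.6% in control, and at those with P300 on neither diet 20.1% in NASH and 7.02% in control. The members thus lay between these classes on both diets, and in NASH near the share of all LXR sites. Over all 36584 stable sites ATF3 overlapped 59.99% in NASH and 36.7% in control, and over the whole NASH LXR list 54.9% in NASH and 28.04% in control. With 1 list per diet and factor, none of these shares has a replicate check.

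**Figure D1:**
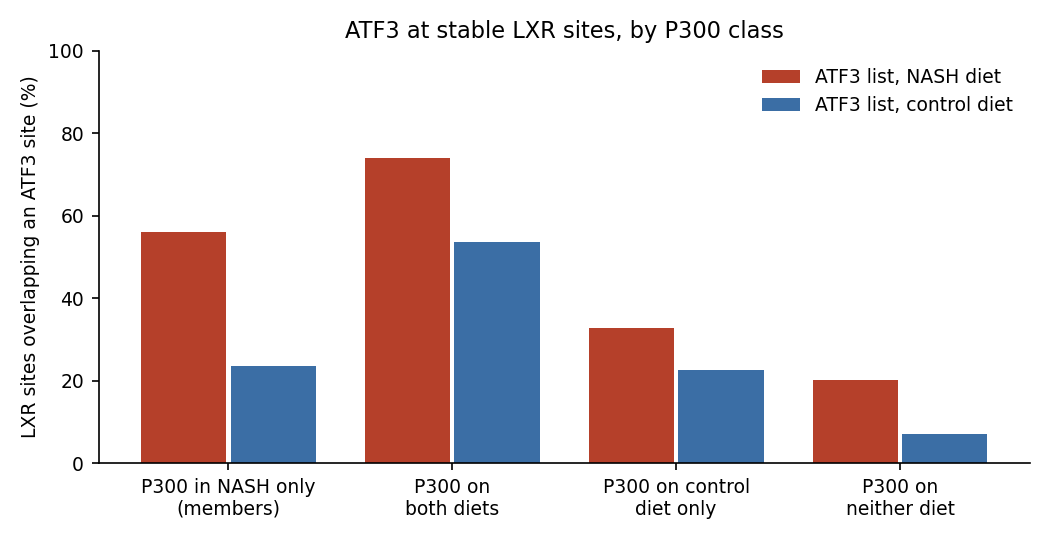
Share of stable LXR sites that overlap an ATF3 site (vertical axis, percent) for the 4 P300 classes, with the NASH list in red and the control list in blue. Members are at 56.0% in NASH and 23.6% in control, between the classes with P300 on both diets and on neither diet.

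H3K27ac at the members as a whole lay near the background of all windows. Of the 12231 members, 10275 (84.0%) overlapped a window, 10394 windows in all, beside 6213 of the 16038 genes in the table. Of these windows 5425 (52.2%) passed the filter on low values. The median log2 change, NASH over control and relative to the median of all tested windows, was 0.01, with quartiles of −0.42 and 0.45, and lay within the spread between libraries of a diet (SD 0.14 of the library medians). Between the libraries the mean over all member windows was 9.64 and 8.80 normalised tags in NASH and 11.2 and 10.2 in control, and over all 70300 windows it was 12.2 and 11.2 in NASH and 13.6 and 12.6 in control. Changes are on the scale of log2(value + 1), on which differences between low values come out too small. The median of all tested windows itself lay at −0.26 on the authors' scaling, and every change printed here is relative to it. The limma tests are of the change before that subtraction, so each rise was tested at 0.26 less, and each fall at 0.26 more, than the size given here.

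A window was called where limma's Benjamini-Hochberg adjusted p was under 0.05 and log2 NASH over control was 1 or more in either direction. By this rule 91 member windows were higher in NASH (1.68% of those tested), against 2.00% of all 35947 tested windows. Lower in NASH were 190 member windows (3.50%), against 4.59% of all tested windows. With TMM scaling, which centres the change of all windows near 0, the split turned round, to 169 windows higher (3.12%, against 3.31% of all) and 81 lower (1.49%, against 2.51% of all). Windows higher in NASH made up 32.4% of the member calls with the authors' scaling and 67.6% with TMM. Called higher by both scalings were 91 windows, and called lower by both were 81. The share of member windows raised was thus near that of all windows, and the share lowered was under it, with either scaling. Leaving out a single library moved these counts, in the same direction at members and over all tested windows. Such a fit has only 1 library for a diet, so its calls are not counted here. The median change of the member windows, relative to all tested windows, was 0.02 without NASH 1. It was 0.01 without NASH 2, without control 1 or without control 2.

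Among the stable LXR sites, windows at members held the highest share raised. It was 0.37% where P300 was on both diets, 0.46% where P300 was in control only and 0.56% where it was on neither diet. The lowered share was 2.91% with P300 on both diets, 7.57% with P300 in control only and 8.39% with P300 on neither diet. LXR sites found in NASH only, which are no members, had 7.06% raised and 2.53% lowered. These shares are set side by side with no test, and 6 windows overlap both a member and a site with P300 on both diets. By the authors' annotation 20.1% of member windows lay at promoters, 41.4% in introns and 33.5% between genes. The authors' ATAC lists of both diets shared 77.4% of member windows, 19.0% were in the control list only and 3.61% in the diet list only, against 62.1%, 28.2% and 9.72% of all windows.

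**Figure D2:**
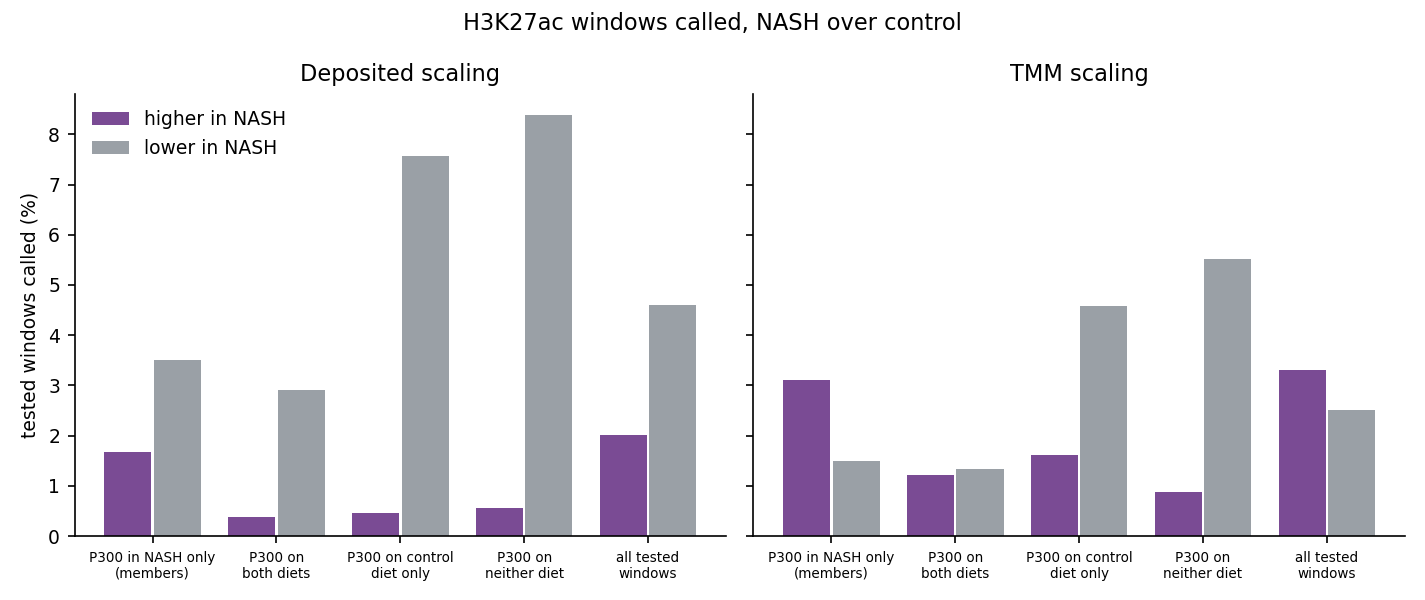
Percent of tested H3K27ac windows called higher (purple) or lower (grey) in NASH than in control, by the P300 class of the LXR site, with the authors' scaling on the left and TMM on the right. Member windows are at 1.68% and 3.50% with the authors' scaling and at 3.12% and 1.49% with TMM, beside 2.00% and 4.59%, and 3.31% and 2.51%, of all tested windows.

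Within the members, the share of called windows varied with the diets on which ATF3 was found. Where ATF3 was called in NASH only, 57 of 2016 tested member windows were raised (2.83%) and 2.13% were lowered, with a median log2 change of 0.14. Where ATF3 was on both diets, 1.72% were raised and 2.49% lowered (median 0.07). Where ATF3 was on neither diet, 0.65% of 1991 windows were raised and 5.02% lowered (median −0.13), and where it was in control only, 0.40% of 252 were raised and 7.14% lowered (median −0.10). With TMM the raised shares were 5.01% for ATF3 in NASH only, 2.74% for both diets, 1.56% for neither and 1.98% for control only. At sites with P300 on both diets, windows with ATF3 in NASH only had 0.52% raised and 2.24% lowered, and those with ATF3 on neither diet 0.19% and 4.62%. At sites with P300 on neither diet, limma called 0 of 250 windows raised for ATF3 in NASH only and 6 of 877 (0.68%) for ATF3 on neither diet (0.40% and 0.80% with TMM), so the raised share was not higher there, and the lowered shares were 2.80% and 10.6%. These are shares of windows, not replicated measurements, and carry no test.

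The shares also varied with the P300 score, which belongs to the rule. With the members in 4 equal groups from the lowest to the highest NASH P300 score, raised windows were 0.97%, 1.62%, 1.41% and 2.35% of those tested and lowered windows 6.73%, 4.21%, 2.82% and 1.66%. The medians were −0.10, −0.09, −0.01 and 0.15. The share of windows that passed the filter was 39.5% in the lowest group and 67.2% in the highest. In 4 such groups by NASH LXR score the raised share was 1.31%, 1.22%, 1.75% and 2.35%. The lowered share there was 4.94%, 3.21%, 2.69% and 3.24%, which did not fall steadily. At promoters 0.47% of member windows were raised, against 2.06% in introns and 2.47% between genes, and over all tested windows the shares were ordered alike, at 0.62%, 2.28% and 3.40%. Windows in the control ATAC list only were lowered in 7.53% of cases, and those shared by both ATAC lists in 2.75%, against 10.8% and 2.90% of all tested windows of these kinds.

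**Figure D3:**
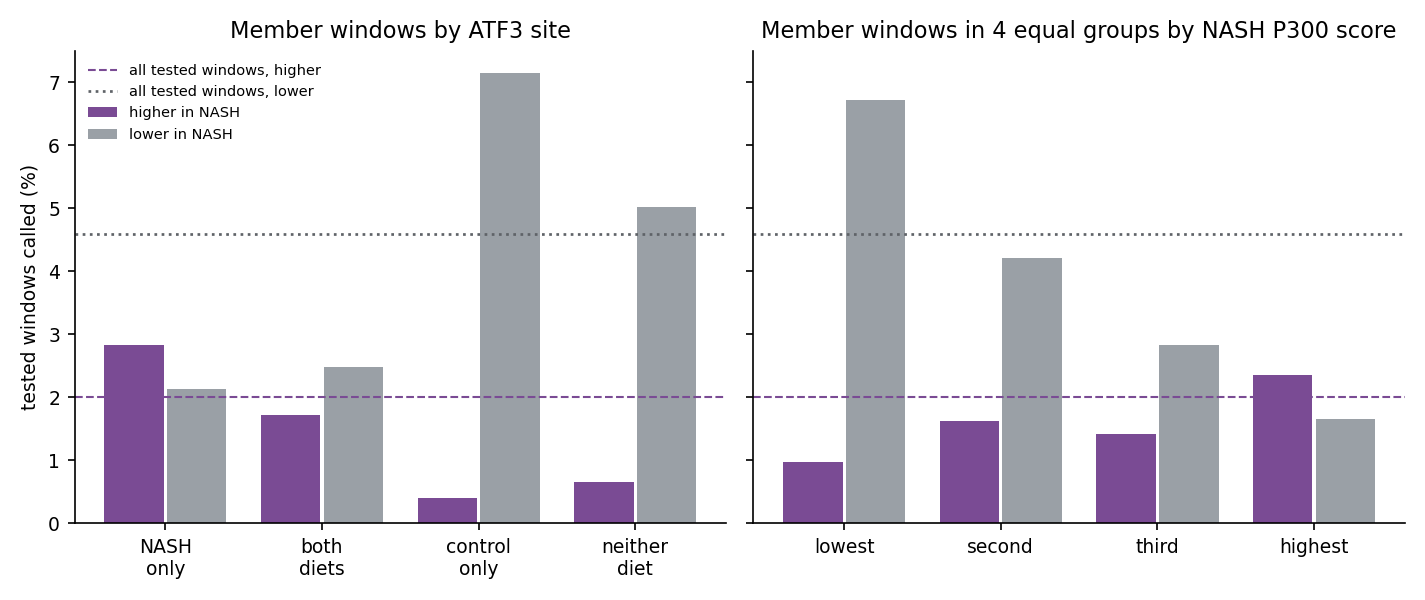
Percent of tested member windows called higher (purple) or lower (grey) in NASH than in control, by the diets with an ATF3 site (left) and by 4 equal groups of the NASH P300 score (right). Dashed and dotted lines mark all tested windows at 2.00% higher and 4.59% lower. Raised windows are at 2.83% with ATF3 in NASH only and lowered ones at 6.73% in the lowest P300 group.

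The factor sites under raised, lowered and uncalled windows are set side by side here with no test. A NASH ATF3 site lay at 77 of the 91 raised windows (84.6%), at 72 of the 190 lowered ones (37.9%) and at 59.0% of the 5144 tested windows that were not called. For the control ATF3 list the shares were 23.1% at raised, 24.7% at lowered and 26.2% at uncalled windows, close to each other. In the control LXR list the sites of raised windows stood at a median percentile of 28.3, those of lowered windows at 54.8 and those of uncalled windows at 49.7. In the NASH LXR list they stood at 64.9, 51.2 and 57.9. Lowered windows lay within 500 bp of a control P300 site in 54 cases (28.4%), raised windows in 10 (11.0%) and uncalled windows in 1114 (21.7%). The raised windows were beside 81 genes and the lowered beside 180. The most raised windows of a gene were 3, at Notch4 and at Synj2, and the most lowered were 3, at Lrrc8c.

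The raised member windows named by the smallest adjusted p among those where the diets did not overlap, 12 in all, are given on build mm10, with the distance to the transcription start. The window of Unc93a, a transmembrane protein gene, lay between genes at −13242 bp (chromosome 17, 13144933 to 13145133) and had 52.3 and 37.4 normalised tags in NASH, against 5.28 and 9.29 in control (log2 change 2.75, SE 0.37, limma adjusted p = 0.000746). Its LXR scores were 231 in NASH and 135 in control, each in its own list. The window of Notch4, a receptor of the Notch pathway, lay at −7764 bp (chromosome 17, 34556414 to 34556649) and had 31.5 and 40.0 tags in NASH and 6.34 and 3.54 in control (2.92, SE 0.40, limma adjusted p = 0.000962). An intron of Lat2, an adaptor of immune receptors, at 454 bp (chromosome 5, 134614447 to 134614696), had 29.9 and 25.5 tags in NASH and 3.17 and 2.65 in control (3.13, SE 0.44, limma adjusted p = 0.000975).

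Synj2, an inositol phosphatase of endocytosis, had 36.8 and 42.1 tags in NASH and 8.45 and 3.10 in control in an intron window (chromosome 17, 6005843 to 6006043; 2.96, SE 0.42, limma adjusted p = 0.00106). Gpa33 had 20.3 and 20.8 in NASH and 2.11 and 0.88 in control (chromosome 1, 166138256 to 166138461; 3.41, limma adjusted p = 0.00158). Glipr1 had the highest NASH levels of the 12 raised windows, with 60.8 and 59.8 in NASH and 12.7 and 20.8 in control (chromosome 10, 111996562 to 111996766; 2.09, limma adjusted p = 0.00168). Sh3pxd2b encodes a scaffold of podosomes, the adhesions with which macrophages degrade matrix. Its intron window (chromosome 11, 32349692 to 32349915) had 19.7 and 14.6 tags in NASH and 0 and 1.33 in control (3.82, SE 0.59, limma adjusted p = 0.00186). Its control libraries held 3 tags in all, and the ratio of tags was 18.3 (exact 95% interval 5.99 to 91.1). Bach2, a repressor of the BACH family, had 10.1 and 7.80 tags in NASH and none in either control library (chromosome 4, 32363678 to 32363879; limma adjusted p = 0.00530). Against a floor of 3 tags per control library it was at least 3.99-fold higher in NASH.

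The calls of the 4 remaining raised windows were lost in fits without NASH 1, without NASH 2 or in both such fits. Sgms1, a sphingomyelin synthase, had 50.1 and 29.6 tags in NASH and 8.45 and 9.29 in control (chromosome 19, 32181240 to 32181512; 2.26, limma adjusted p = 0.00281), and the adjusted p was 0.0949 without NASH 1. Sqstm1, the autophagy receptor p62, had 54.9 and 53.6 in NASH and 16.9 and 19.5 in control (chromosome 11, 50213060 to 50213266; 1.79, limma adjusted p = 0.00371), and 0.0506 without NASH 1 and 0.0609 without NASH 2. Cttnbp2nl had 20.3 and 31.7 in NASH and 5.28 and 3.54 in control (chromosome 3, 105055058 to 105055305; 2.56, limma adjusted p = 0.00406), and 0.129 without NASH 2. Ski, which represses SMAD signalling downstream of TGF-β, had 26.7 and 25.0 in NASH and 4.22 and 5.75 in control (chromosome 4, 155220797 to 155220997; 2.43, limma adjusted p = 0.00406), and 0.0652 without NASH 1 and 0.0694 without NASH 2. Before the median was subtracted, the Sqstm1 change was 1.53 with all libraries, 1.51 without NASH 1 and 1.55 without NASH 2. For Ski it was 2.17, 2.13 and 2.22, so these 2 changes hardly moved. Sgms1 moved from 2.00 to 1.64 without NASH 1, and Cttnbp2nl from 2.30 to 1.99 without NASH 2. Of the 12, 7 had an ATF3 site in NASH only, 3 on both diets and 2, at Lat2 and Ski, on neither.

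The lowered member windows named by the same rule lay in introns, except those near Fam102a and Ptgis, which lay between genes. The intron window of Fan1, a nuclease of DNA crosslink repair (chromosome 7, 64360258 to 64360467), had 2.13 and 2.08 normalised tags in NASH and 27.5 and 31.8 in control (−3.04, SE 0.45, limma adjusted p = 0.000418). That of Mgst2, a glutathione transferase that can make leukotriene C4 (chromosome 3, 51708698 to 51708925), had 3.73 and 6.76 in NASH and 41.2 and 38.9 in control (−2.50, SE 0.39, limma adjusted p = 0.000549). Arl15, a small GTPase, had 4.27 and 2.08 in NASH and 26.4 and 34.9 in control (chromosome 13, 113917687 to 113917908; −2.70, limma adjusted p = 0.000962). The window of Zfp277, a zinc finger gene (chromosome 12, 40430656 to 40430857), had 0 and 2.60 in NASH and 30.6 and 22.99 in control (−3.60, SE 0.59, limma adjusted p = 0.000973).

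The window near Fam102a had 6.40 and 10.9 tags in NASH and 45.4 and 43.8 in control (chromosome 2, 32506750 to 32506987; −2.02, limma adjusted p = 0.000998). Impdh1, an enzyme of guanine nucleotide synthesis, had 5.87 and 1.56 in NASH and 43.3 and 26.5 in control at 345 bp from its start (chromosome 6, 29215898 to 29216140; −2.80, limma adjusted p = 0.00127). The nearest control P300 site lay only 24 bp from this member and 53 bp from that of Spag9, so both sit close to the border of the rule, and Mgst2, Arl15, Fam102a and Mpzl1 also lay within 500 bp of one. Tcf7l1, a factor of the Wnt pathway, had 0.53 and 0.52 in NASH and 14.8 and 15.9 in control (chromosome 6, 72736932 to 72737142; −3.16, limma adjusted p = 0.00168). Ptgis, the prostacyclin synthase, had 0.53 and 0 in NASH and 14.8 and 10.2 in control (chromosome 2, 167260450 to 167260663; −3.17, limma adjusted p = 0.00291). With 2 and 1 NASH tags, the ratios of control to NASH tags were 29.6 at Tcf7l1 (exact 95% interval 7.78 to 251) and 43.8 at Ptgis (7.39 to 1776). Mpzl1 (−1.99), Lrrc8c (−2.30), Dnajc13 (−1.61) and Spag9 (−1.46) completed the 12, with limma adjusted p = 0.00224, 0.00275, 0.00369 and 0.00389. An ATF3 site was called in NASH only at 3 of the 12, in control only at 2 and on neither diet at 7. No call among the 12 was lost by leaving out a library. With DESeq2 the calls of Zfp277, Ptgis, Dnajc13 and Spag9 were lost, at adjusted p = 0.218, 0.0683, 0.0520 and 0.0645.

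**Figure D4:**
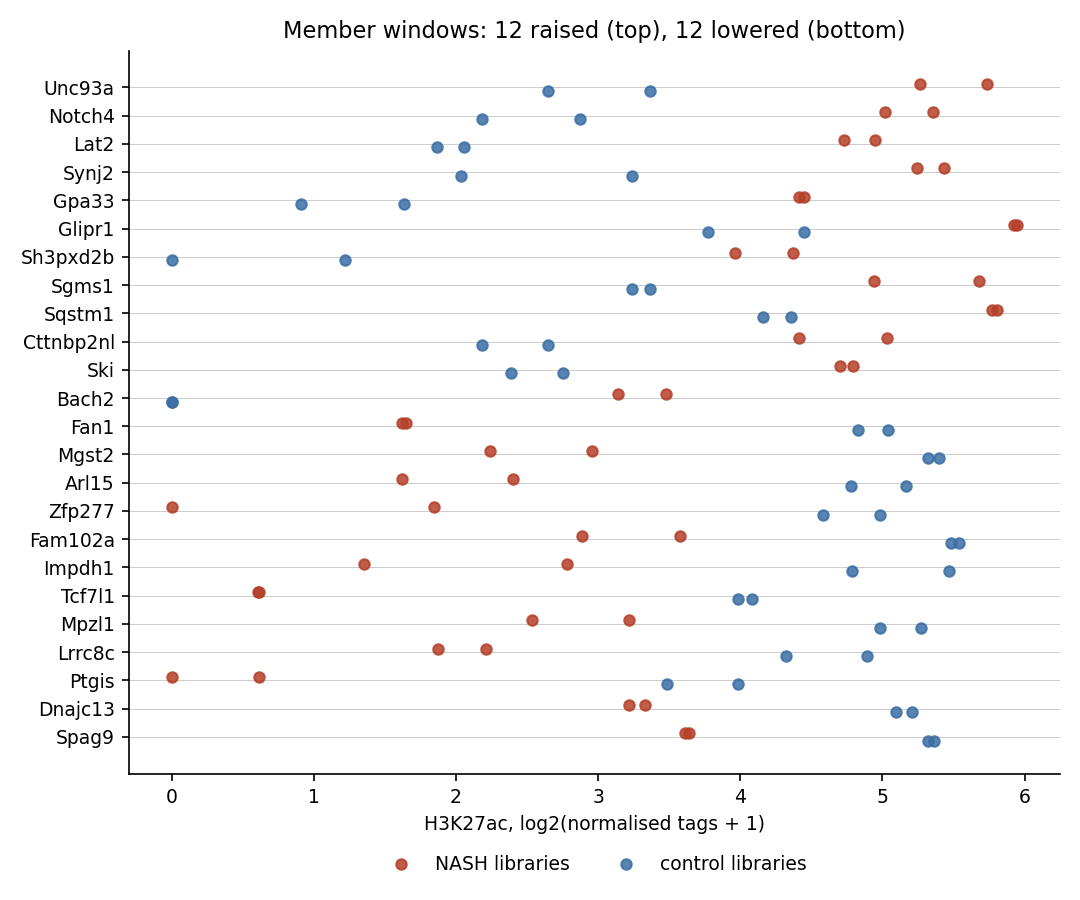
H3K27ac of the 12 raised and 12 lowered member windows named by the smallest adjusted p among those where the diets did not overlap, as log2(normalised tags + 1) on the horizontal axis, 1 point per library, with NASH in red and control in blue. Both Bach2 control points lie at 0.

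No list of genes had more than 4 member windows called in 1 direction with the authors' scaling. At LXR targets, 44 of 163 stable LXR sites with a window (26.99%) were members, against 32.4% of all stable sites with a window. The 46 member windows of 10 target genes gave 38 tested, of which limma called 0 raised and 0 lowered, with a median log2 change of 0.17, against 0.22 over all tested windows of the list and 0 over all tested windows. All 203 tested windows of the list had 2 raised and 6 lowered. Of the 38 tested member windows, 1 was higher and 4 were lower in NASH at an unadjusted limma p under 0.05. Calls among these member windows numbered 1 raised and 0 lowered with edgeR, and 0 in either direction with DESeq2. Abcg1, which exports cholesterol to lipoproteins, had the most member sites of these genes, 10 of its 13 stable LXR sites. Abca1, the other efflux pump of the list, had 3 of 21. The Abcg1 window with the smallest adjusted p (chromosome 17, 31067146 to 31067349) had 13.9 and 23.4 tags in NASH and 8.45 and 7.96 in control (1.31, SE 0.41, limma adjusted p = 0.131), and 0.0394 with edgeR's quasi-likelihood test. Windows of Scd2 (−1.18) and Scd1 (−0.52), fatty acid desaturases, and of Tmem86a (−0.39) had limma adjusted p = 0.111, 0.199 and 0.140. The Scd2 window had 2.13 and 8.84 tags in NASH and 15.8 and 12.4 in control.

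For genes of Kupffer cell identity, 43 member windows gave 31 tested, 0 raised (0 also higher at an unadjusted limma p under 0.05, and 0 raised with edgeR and DESeq2) and 2 lowered, with a median of −0.34, against −0.41 over all 202 tested windows of the list, of which 1 was raised and 37 were lowered. Pcolce2, which aids procollagen processing, had 1.07 and 2.08 tags in NASH and 19.0 and 11.1 in control (chromosome 9, 95639989 to 95640194; −2.36, SE 0.55, limma adjusted p = 0.00773). Its p was 0.0540 without NASH 1 and 0.0587 without control 1. Adgre1, which encodes F4/80, a marker of the sort, had 4.27 and 8.32 in NASH and 15.8 and 24.8 in control (chromosome 17, 57344078 to 57344295; −1.31, SE 0.44, limma adjusted p = 0.0391). Its p was 0.226 without NASH 1, 0.0790 without NASH 2 and 0.155 without control 2, and 0.0905 with TMM. A window of Kcna2, a potassium channel gene, and a second one of Adgre1 had changes of −1.40 and −0.92 (limma adjusted p = 0.0663 and 0.104). The Kupffer marker windows as a whole were lower in NASH, as given above.

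For lipid-associated and scar-associated macrophages, 37 member windows of 17 genes gave 25 tested, 3 raised and 0 lowered (1 lower at an unadjusted limma p under 0.05, and 0 lowered with edgeR and DESeq2), with a median of 0.43, against 0.46 over all 159 tested windows of the list, of which 21 were raised and 1 was lowered. Anxa2, a membrane-binding annexin, had 14.9 and 16.6 tags in NASH and 4.22 and 1.33 in control in an intron window (chromosome 9, 69454284 to 69454484; 2.52, SE 0.53, limma adjusted p = 0.0142). Itgax, the CD11c integrin, had 21.9 and 23.4 in NASH and 6.34 and 9.29 in control at −611 bp (chromosome 7, 128128849 to 128129066; 1.70, SE 0.39, limma adjusted p = 0.0325). Mmp12, the macrophage elastase, had 22.9 and 26.0 in NASH and 7.39 and 11.5 in control (chromosome 9, 7345577 to 7345810; 1.57, SE 0.38, limma adjusted p = 0.0427). The diets did not overlap in the 3 windows. All 3 calls were lost without either NASH library. Without NASH 1 the adjusted p was 0.0868 for Anxa2, 0.155 for Itgax and 0.160 for Mmp12, and without NASH 2 it was 0.146, 0.258 and 0.316. Without control 1 it was 0.0782 for Itgax and 0.129 for Mmp12. Cd36, a scavenger receptor for oxidised lipid, had 11.7 and 13 in NASH and 5.28 and 1.33 in control (2.06, limma adjusted p = 0.0554), and 0.0298 with TMM. At Trem2, the lipid receptor of these cells, all 3 stable LXR sites with a window were members, and its 2 tested windows had changes of 1.74 and 0.87 (limma adjusted p = 0.0931 and 0.489). Trem2 is named after its values were seen. Over the whole list, 37 of 120 stable LXR sites with a window (30.8%) were members, against 32.4% of all stable sites with a window.

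For NF-κB and inflammation, 43 member windows gave 26 tested, 0 raised (2 higher at an unadjusted limma p under 0.05, 2 raised with edgeR and 0 with DESeq2) and 2 lowered, with a median of 0.34, against 0.22 over all 167 tested windows of the list, of which 9 were raised and 6 lowered. The 2 lowered were the Il6 promoter, given above, and a window of the chemokine gene Ccl7 with 3.20 and 0.52 tags in NASH and 14.8 and 6.63 in control (chromosome 11, 82041630 to 82041830; −1.86, SE 0.63, limma adjusted p = 0.0477). The Ccl7 call was lost without NASH 2 (0.369), without control 1 (0.272) and with TMM (0.0697). Tnf, in an intron at 851 bp, had 47.5 and 34.3 in NASH and 19.0 and 20.8 in control (chromosome 17, 35201056 to 35201256; 1.25, SE 0.30, limma adjusted p = 0.0540), and 0.0154 with TMM. Tnfaip3, the gene of A20, which restrains NF-κB, had 22.4 and 13.5 in NASH and 5.28 and 7.07 in control (chromosome 10, 19007922 to 19008150; 1.63, SE 0.44, limma adjusted p = 0.0651), and 0.0296 with TMM. With TMM this list had 2 raised and 1 lowered. The Il6, Ccl7, Tnf and Tnfaip3 members all had ATF3 in NASH only, and a control P300 site lay 43 bp from the Ccl7 member and 68 bp from that of Tnf.

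For TGF-β, BMP and Notch, 55 member windows gave 33 tested, 4 raised and 2 lowered, with a median of 0.07, against 0.07 over all 191 tested windows of the list, of which 8 were raised and 5 lowered. Besides Ski and the Notch4 window above, 2 more windows upstream of Notch4 were raised. At −7172 bp (chromosome 17, 34557017 to 34557230) Notch4 had 18.1 and 18.2 tags in NASH and 4.22 and 3.10 in control (2.31, SE 0.46, limma adjusted p = 0.0115). At −8563 bp (chromosome 17, 34555632 to 34555833) it had 8.53 and 16.6 in NASH and 2.11 and 0.88 in control (2.68, SE 0.58, limma adjusted p = 0.0162). The nearer of the pair was lost without NASH 1 (0.0964) and without NASH 2 (0.129), the farther one without NASH 2 (0.208). Of the 4 stable LXR sites with a window at Notch4, 3 were members, so the 3 windows are neighbours and not separate loci. The 2 lowered windows, named after their values were seen, were the Tgfb1 promoter (−1.51, limma adjusted p = 0.04995) and an intron of Notch2 (−1.51, limma adjusted p = 0.0380). Tgfb1 was lost without NASH 1 (0.113), NASH 2 (0.265) or control 1 (0.365), and Notch2 without NASH 1 (0.0712), NASH 2 (0.266) or control 2 (0.151). With TMM, 5 windows of this list were raised and 0 lowered.

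For AP-1, ATF and related factors, 68 member windows gave 39 tested, and limma called 0 raised and 0 lowered with the authors' scaling. At an unadjusted limma p under 0.05, 1 was higher and 3 were lower in NASH, and calls numbered 1 raised with edgeR and 0 in either direction with DESeq2. Their median was 0.12, against 0.12 over all 297 tested windows of the list, of which 13 were raised and 11 lowered. Nfe2l2, the master factor of the oxidative stress response, had 19.2 and 20.3 tags in NASH and 7.39 and 10.6 in control (chromosome 2, 75734225 to 75734465; 1.33, SE 0.39, limma adjusted p = 0.105), and 0.0485 with TMM. Batf (−1.09), Fosb (−0.89) and Fosl2 (−1.08) had limma adjusted p = 0.0995, 0.124 and 0.149. For lipid handling and the lysosome, 30 member windows gave 20 tested, 0 raised (1 higher at an unadjusted limma p under 0.05, 1 raised with edgeR and 0 with DESeq2) and 2 lowered, with a median of −0.11, against −0.08 over all 160 tested windows of the list, of which 2 were raised and 10 lowered. Both lowered windows lay at genes of RXR, the partner with which LXR binds DNA. The Rxra intron window (chromosome 2, 27739615 to 27739815) had 12.3 and 10.9 in NASH and 33.8 and 33.6 in control (−1.20, SE 0.33, limma adjusted p = 0.0122), and 0.0536 without NASH 1 and 0.106 without NASH 2. The Rxrb intron window (chromosome 17, 34032963 to 34033181) had 16.5 and 7.80 in NASH and 41.2 and 22.99 in control (−1.10, SE 0.40, limma adjusted p = 0.0447). Rxrb was lost without NASH 2 (0.409), without control 1 (0.238) and with TMM (0.0880), and its promoter window had a log2 difference of −0.48 (limma adjusted p = 0.143). With DESeq2 the calls of Pcolce2, Adgre1, Itgax, Mmp12, Ccl7, Rxra, Rxrb, Tgfb1 and Notch2 were lost, at adjusted p of 0.0794 to 0.427, and those of Anxa2, Ski and the Notch4 windows were not.

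**Figure D5:**
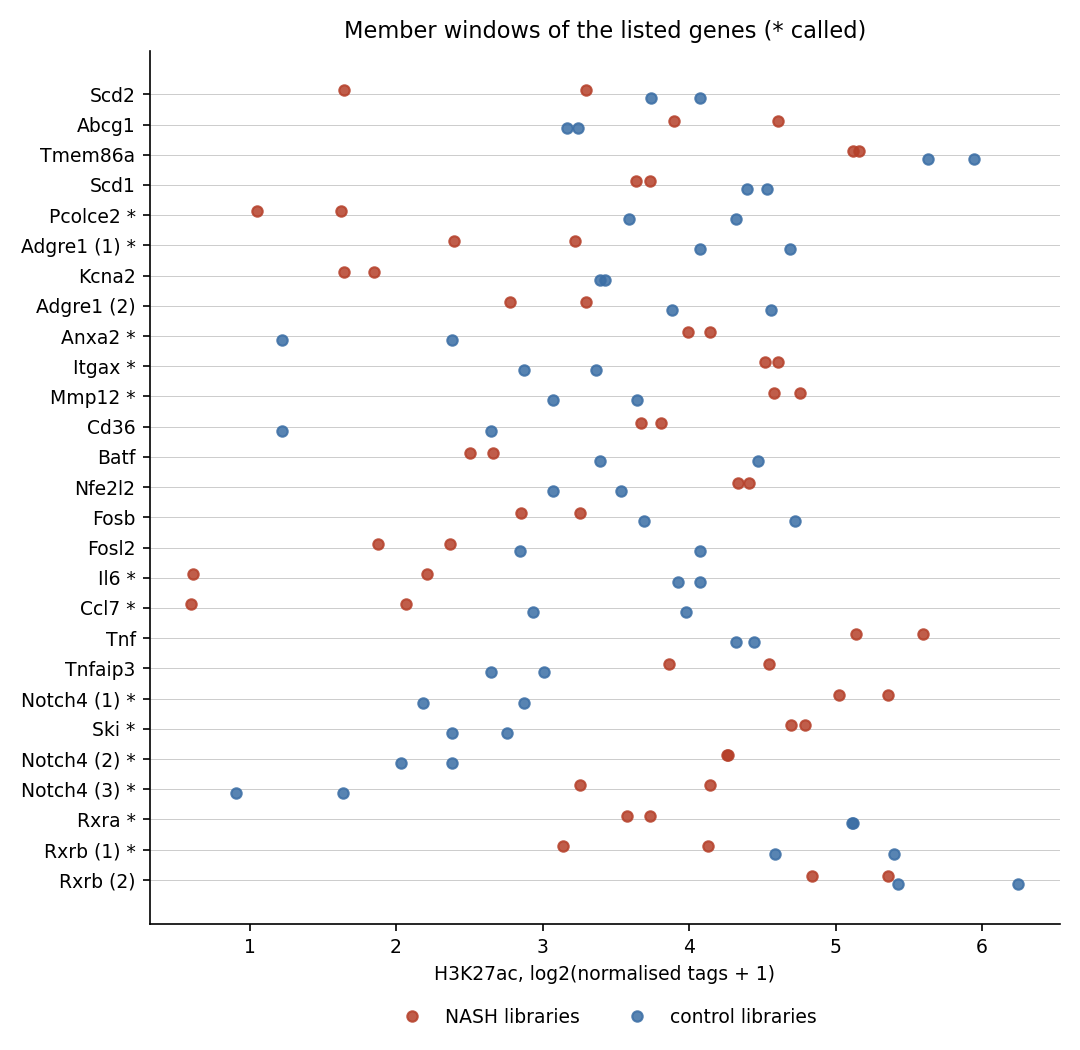
H3K27ac of the member windows with the smallest adjusted p for each gene list, as log2(normalised tags + 1) on the horizontal axis, 1 point per library, with NASH in red and control in blue. An asterisk marks a window called by limma. Anxa2, Itgax, Mmp12, Ski and the 3 Notch4 windows are higher in both NASH libraries, and Pcolce2, Adgre1, Il6, Ccl7, Rxra and Rxrb are lower.

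The members with the highest scores had no called change of H3K27ac. By P300 score they lay at Rn45s (481), Sema6d (258), 1810026B05Rik (249), Ccr1 (239) and Trim25 (237). Rn45s is ribosomal RNA, a repeated sequence whose reads cannot be placed with certainty. The window of Ccr1, a chemokine receptor gene (chromosome 9, 123932040 to 123932240), had 19.2 and 24.4 tags in NASH and 16.9 and 20.3 in control (0.47, SE 0.34, limma adjusted p = 0.746). The window of Sema6d, a semaphorin (chromosome 2, 124684352 to 124684552), had 18.1 and 16.1 in NASH and 33.8 and 26.97 in control (−0.53, SE 0.32, limma adjusted p = 0.143), and the nearest control P300 site lay 28 bp away. By NASH LXR score the first members lay at Trim25 (472), Gpx1 (443), Sema6d (415), Rn45s (374) and Foxp1 (354). The window of Trim25, a ubiquitin ligase of antiviral signalling, had 9.60 and 8.84 in NASH and 5.28 and 3.98 in control (1.13, limma adjusted p = 0.305). Gpx1, a glutathione peroxidase, had 57.6 and 51.5 in NASH and 52.8 and 56.6 in control (0.25, limma adjusted p = 0.992). Its libraries of the diets overlapped.

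Some loci held many members. Of the 6213 genes with a member window, 4011 had 1 and 241 had 5 or more. Most member sites were annotated to Dnmt3a, a DNA methyltransferase, with 14 of its 32 NASH LXR sites over chromosome 12, 3771173 to 3897437. Its 14 windows summed to 148 and 167 tags in NASH and 229 and 156 in control, and the 10 tested had log2 differences of −1.02 to 1.69, with none called. Frmd4a followed with 13 sites, then 4930563J15Rik with 12, and 9330111N05Rik and Gm14005 with 11 each, an equal count being ordered by name. The 12 windows of 4930563J15Rik summed to 209 and 176 in NASH and 145 and 141 in control, and 9 of its 11 tested windows lay above the median of all windows. One of them was called (chromosome 10, 67690132 to 67690341), with 16 and 18.7 in NASH and 5.28 and 4.86 in control (1.85, SE 0.44, limma adjusted p = 0.0336). That call was lost without NASH 1 (0.140) and without NASH 2 (0.275). No window of Frmd4a, 9330111N05Rik or Gm14005 was called by limma with either scaling.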

How the data were processed

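H3K27ac values were deposited as signal: per the file headers, the authors counted tags per window on mm10 with HOMER and scaled each library to 10000000. Dividing by the scale gave whole tags for 100% of values (tolerance 0.02 tag), which the count tests used. LXR, P300 and ATF3 were deposited as 1 site list per diet from both libraries, with the authors' score for each site. The submitters' processing notes name Bowtie2, HOMER and DESeq2, whose versions and roles are not given in the sources used here. Site scores were used only within their own list. Input and peritoneal macrophage samples were not used here.

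Sites were overlapped by at least 1 bp (bedtools 2.31.1). H3K27ac was tested with limma 3.58.1 (R 4.3.3) on log2(value + 1) over 35947 windows kept by filterByExpr of edgeR 4.0.16, with Benjamini-Hochberg adjustment over all of them, calls at adjusted p under 0.05 and 1 log2 unit or more in either direction. Tests were also run on simulated data, with no outcome given here, so that run says nothing about error in these libraries. Alternatives were TMM, pseudocount 5, no filter, edgeR's quasi-likelihood test, DESeq2 1.42.0, leaving out each library, a replicate block, and other member rules. Floors are 3 tags, and exact 95% intervals cover counting error only.

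The members and lists were chosen with earlier results of these data known. Named windows were the 12 raised and 12 lowered with the smallest adjusted p with no overlap between the diets, predicted genes left out and each gene taken once, up to 4 per gene list, the 5 members of highest P300 and of highest LXR score, and the 5 genes with most members. The planned sequences of those windows needed a genome that was not used here, so promoter stretches were shown, of at least 100 bp of member site at the promoter of the annotated gene, the 4 raised and 4 lowered of smallest adjusted p, less 2 not called with TMM. Sequences are from RefSeq, GRCm38.p6.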

Additional observations from a re-analysis of the deposited data

How the results depend on the processing

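The median change of the member windows, relative to all tested windows of the same fit, stayed between −0.02 and 0.02 under the other scalings, tests, pseudocount and filter, without each library, with the block and with windows within 500 bp. Other member rules, tried for it after seeing the data, gave 0.01 with 50% of the LXR site covered, 0.02 with no control P300 within 500 bp, 0.10 with the P300 list at control length and 0.05 in the upper 50% of the LXR list. The counts of member windows moved more. Raised and lowered windows numbered 169 and 81 with TMM, 205 and 123 with edgeR's quasi-likelihood test, 44 and 13 with DESeq2, and 15 and 15 with no filter on low values, where more windows were tested. Leaving out a library gave 16 to 141 raised and 37 to 274 lowered. With the replicate block there were 159 and 382. The deviations of the same-numbered libraries had a correlation of 0.04. Little shift was thus shared by number, which cannot tell whether the libraries were handled in pairs. With the NASH P300 list at control length there were 58 and 60, and with windows within 500 bp of the site 159 and 318. These rules also change how many windows belong to members, so their counts cannot be compared with the main ones as shares. Member sites numbered 4786 with the P300 list at control length and 6759 in the upper 50% of the NASH LXR list, and ATF3 in NASH then overlapped 75.5% and 67.1% of them. It overlapped 57.2% where 50% of the LXR site had to be covered, and 58.4% within 200 bp. Pseudocount 5 gave 97 and 223, against 745 and 1789 over all tested windows. Followed here were 45 called windows, which include the 2 promoters not printed because TMM did not call them (Zfp770 and Rasgrp1). Of the 45, none was lost with pseudocount 5 or the block, 7 with TMM, 4 with edgeR and 22 with DESeq2. The 7 lost with TMM include these 2 promoters. The block made limma adjusted p far smaller, from 0.000746 to 1.4e-09 at Unc93a and from 0.000418 to 1.2e-09 at Fan1. It could thus hardly lose a call and is no check on them. Among fits that leave only 1 library for a diet, more calls were lost without a NASH than without a control library. No direction reversed. The cause of these shifts was not tested. Control 1 held 9468035 tags, fewer than any other library, and limits the low windows.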
